A study of Mus musculus with 6 samples.

Results

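miR-9 (mmu-miR-9 in the counts) was followed through its 2 mature strands, miR-9-5p and miR-9-3p, in small RNA libraries of the embryonic mouse kidney. Every entry whose mature name begins with miR-9 and a hyphen was taken, which gave 6 of the 792 entries of the count table, 2 of its 535 mature miRNAs and 3 of its 436 precursors. The miRNA was chosen by the measured values themselves, namely the large fall of miR-9-5p in nephron progenitors, so the difference between the groups is described for both strands and not tested. Libraries came from a nephron progenitor fraction (MNP, 3 libraries) and from whole kidney (MWK, 3 libraries) of CD1 embryos at embryonic day 15.5. The material of each library was pooled from 1 litter and both groups came from 3 litters, so an MNP and an MWK library may stem from the same litter, but which do is not stated. MNP cells were those left after magnetic depletion of CD140a, CD105, Epcam and Ter119 positive cells from a limited digest, an isolation known to retain some renal stroma. MWK samples were the kidneys remaining after that digest, so that dissociation and cell population cannot be told apart. The sources differ on whether the RNA of both groups was purified with the same kit.

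A miRNA is processed from a hairpin precursor, and either arm of the hairpin can be loaded into an Argonaute protein, where a short stretch near its 5′ end, the seed, pairs with the mRNAs that are repressed. miR-9 is best known from the developing nervous system, where it is abundant in neural progenitors and represses regulators such as Hes1 and the nuclear receptor Tlx. Nephron progenitors are mesenchymal cells that become epithelial as they form nephrons, and the mRNAs that define them, Six2 and Cited1, are not measured by small RNA libraries.

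With the highest count per mature miRNA, the libraries held 393951, 436113 and 333850 counts in MNP1, MNP2 and MNP6 and 349241, 360221 and 355848 counts in MWK1, MWK2 and MWK6. The names MNP6 and MWK6 give a group but no numbered sample, so these libraries were used without a replicate number. Levels are given in CPM, counts scaled by TMM so that libraries of different depth can be compared.

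miR-9-5p had 26, 41 and 25 counts in MNP1, MNP2 and MNP6 and 1397, 1537 and 1381 counts in MWK1, MWK2 and MWK6. This was 64.0, 89.3 and 65.7 CPM in the MNP libraries and 4199.9, 4839 and 4036 CPM in the MWK libraries. Each MNP library was low and each MWK library high, without overlap, as was the case in one direction or the other for 46.7% of the 525 miRNAs tested. The mean was 73.0 ± 14.1 CPM in MNP and 4358 ± 424 CPM in MWK (SD, n = 3 libraries each), a 59.7-fold difference that left 1.67% of the MWK level in MNP. Over the pairs of one MNP and one MWK library the ratio ran from 45.2 to 75.6. The fitted log2 fold change was -5.89, beside a median of -0.01 over all 525. Of these, 23.2% lay lower in every MNP library, 23.4% lay higher in every MNP library, and 36.6% passed an adjusted p of 0.05 in either direction, 17.1% lower and 19.4% higher (edgeR's quasi-likelihood test, Benjamini-Hochberg adjusted). Since miR-9 was picked on this contrast, nothing is read from its place among them. In bulk samples, fewer cells of a type and less RNA per cell cannot be told apart.

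In whole kidney miR-9-5p was a well expressed miRNA. It took 0.400% of the counts in MWK1 (95% Clopper-Pearson interval 0.379% to 0.422%), 0.427% in MWK2 (0.406% to 0.449%) and 0.388% in MWK6 (0.368% to 0.409%). By CPM it ranked 38, 33 and 38 among all miRNAs of MWK1, MWK2 and MWK6. Its neighbours by mean level were miR-615-3p above, at 4650.3 ± 556 CPM, and miR-423-3p below, at 4145 ± 431 CPM, and neither differed from it by more than the spread between libraries.

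In nephron progenitors miR-9-5p ranked 250, 231 and 240 in MNP1, MNP2 and MNP6. Its neighbours there were miR-342-3p at 76.9 ± 15.6 CPM and miR-151-5p at 72.8 ± 17.9 CPM, again within the spread. It took 0.00660% of the counts in MNP1 (95% Clopper-Pearson interval 0.00431% to 0.00967%), 0.00940% in MNP2 (0.00675% to 0.0128%) and 0.00749% in MNP6 (0.00485% to 0.0111%). These intervals overlap, and a difference between the MNP libraries was not tested. Pooled over libraries, 4315 counts in MWK against 92 in MNP gave a ratio of 58.9 with a 95% counting interval from 47.9 to 73.2. Reads without molecular identifiers are not independent molecules, and all these intervals cover counting error only.

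**Figure D1:**
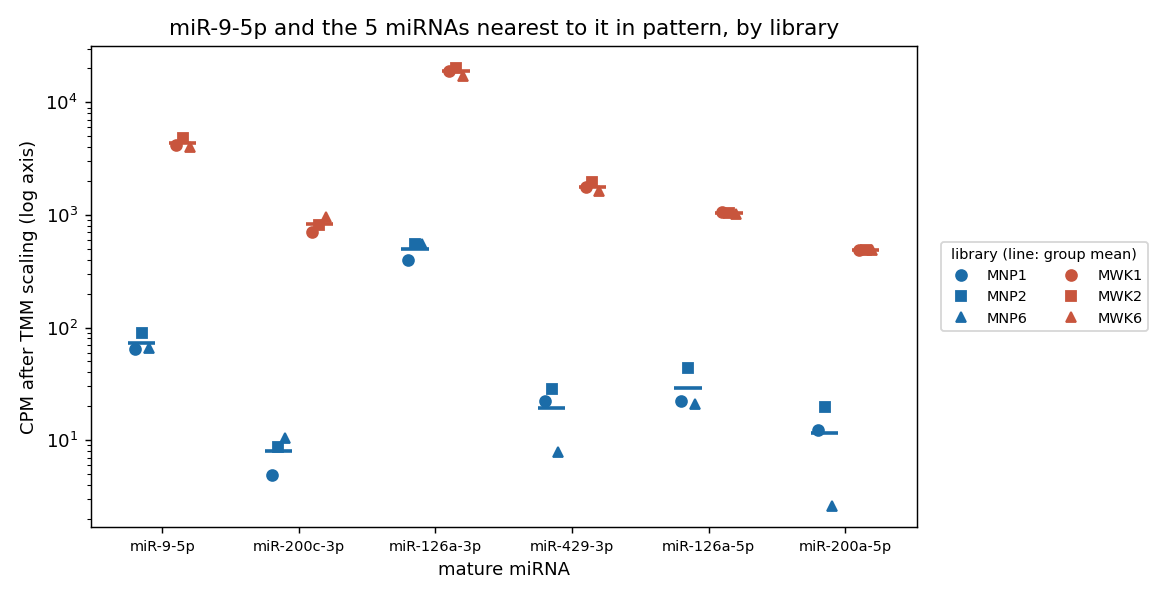
CPM after TMM scaling, on a log axis, of miR-9-5p and of the 5 miRNAs nearest to it in pattern, with one point per library (MNP in blue, MWK in red) and a line at each group mean (n = 3). miR-9-5p lay between 64.0 and 89.3 CPM in MNP and between 4036 and 4839 CPM in MWK, and the groups of the other 5 miRNAs were likewise apart.

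The opposite strand, miR-9-3p, had few counts in both groups. It had 0, 0 and 1 counts in MNP1, MNP2 and MNP6 and 3, 11 and 9 counts in MWK1, MWK2 and MWK6. This was 0, 0 and 2.63 CPM in the MNP libraries and 9.02, 34.6 and 26.3 CPM in the MWK libraries. The groups did not overlap, but MWK1 held no more than the 3 counts taken here as the floor of a library. Pooled, 23 counts in MWK against 1 in MNP gave a ratio of 28.9 with a 95% counting interval from 4.69 to 1189.5. miR-9-3p passed the filter on low counts (a sum of more than 10 over the libraries) through MWK alone, and this ratio is a description.

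Nearly all miR-9 counts of the whole kidney were therefore of the 5p strand, and how counts relate to molecules of each strand was not measured. miR-9-3p made up 0.214% of the counts of both strands in MWK1 (95% Clopper-Pearson interval 0.0442% to 0.625%), 0.711% in MWK2 (0.355% to 1.27%) and 0.647% in MWK6 (0.296% to 1.23%). The intervals overlap, and a difference between these libraries was not tested. Over the MWK libraries the share was 23 of 4338 counts, or 0.530% (0.336% to 0.795%). Over the MNP libraries it was 1 of 93 counts, or 1.08% (0.0272% to 5.85%). A change in the use of the strands was not detectable at this depth, since the 0 of 26 counts in MNP1 and 0 of 41 in MNP2 allow a 3p share of up to 11.5% and 7.32%, taken as 3 counts of the total.

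The mature sequences show why the counts cannot be assigned to one locus, since each strand is identical at 3 loci. They are given from RefSeq (GRCm38.p6), 5′ to 3′ with the seed, bases 2 to 8, in capitals, beside miR-9b, which RefSeq places on the opposite strand of the miR-9 loci.
miR-9-5p: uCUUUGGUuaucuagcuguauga
miR-9-3p: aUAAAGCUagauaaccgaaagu
miR-9b-5p: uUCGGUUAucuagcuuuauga
miR-9b-3p: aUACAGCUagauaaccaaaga
Among the 1679 mature names of the reference, no other has the seed of either miR-9 strand. miR-9b-5p has a run of 12 bases in common with miR-9-5p but another seed, and miR-9b was not analysed here.

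The precursors lie on the plus strand, mir-9-1 on chromosome 3 (88215598 to 88215686, mm10), mir-9-2 on chromosome 13 (83738814 to 83738885) and mir-9-3 on chromosome 7 (79505264 to 79505353). In GENCODE, mir-9-1 lies in introns of the noncoding RNA Gm3764 and mir-9-3 in introns of Mir9-3hg. mir-9-2 lies within the noncoding RNA C130071C03Rik, inside exon 4 of 1 of the 3 transcripts over it. The hairpins are shown because they differ only outside the mature strands, which are in capitals (RefSeq, GRCm38.p6, 3 of 3 matched).
mir-9-1: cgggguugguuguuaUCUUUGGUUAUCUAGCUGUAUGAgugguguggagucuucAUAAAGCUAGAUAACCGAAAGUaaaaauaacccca
mir-9-2: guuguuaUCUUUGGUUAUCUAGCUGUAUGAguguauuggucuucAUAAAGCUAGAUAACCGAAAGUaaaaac
mir-9-3: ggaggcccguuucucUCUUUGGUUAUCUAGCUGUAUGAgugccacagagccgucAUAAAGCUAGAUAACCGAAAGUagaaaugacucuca
Next to the mature strands, mir-9-1 and mir-9-2 have 7 bases in common before the 5p strand and 5 after the 3p strand, whereas mir-9-3 has 0 and 1 in common with either.

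The counts differed between precursors only for mir-9-3. On mir-9-1 and mir-9-2 each strand had equal counts in all 6 libraries. On mir-9-3 the count of miR-9-5p was lower by 1 in MWK2 and by 1 in MWK6 and equal in the other 4 libraries. The count of miR-9-3p on mir-9-3 was 2, 6 and 6 in MWK1, MWK2 and MWK6, against 3, 11 and 9 on the other precursors. Whether reads that extend past the mature strand account for this was not tested. The 6 entries are thus 2 measurements listed for 3 loci, and they give no level per locus.

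Likeness to miR-9-5p was measured as the Euclidean distance between log2 CPM profiles over the 6 libraries after subtracting each miRNA's own mean, among 333 other miRNAs with a mean of at least 10 counts. The nearest were miR-200c-3p (distance 0.652), miR-126a-3p (0.801), miR-429-3p (1.01), miR-126a-5p (1.08) and miR-200a-5p (1.39), where the median distance was 7.09. The profiles used a prior count of 2, and miR-200c-3p had 2, 4 and 4 counts in MNP. Its first place may thus rest on that prior, and other prior counts were not tried. The distance is set mostly by the contrast on which miR-9 was picked and is a description. miR-9-3p itself, with few counts, stood at a distance of 4.70 from miR-9-5p.

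miR-200c, miR-429 and miR-200a are members of the epithelial miR-200 family, which represses Zeb1 and Zeb2. miR-200c-3p was at 4.92, 8.71 and 10.5 CPM in MNP1, MNP2 and MNP6 and at 706, 812 and 953 CPM in MWK1, MWK2 and MWK6. miR-429-3p was at 22.2, 28.3 and 7.88 CPM in the MNP libraries and 1774, 1955 and 1619 CPM in the MWK libraries. Both were low in every MNP library and high in every MWK library, as was miR-9-5p, but their MNP levels rest on 2, 4 and 4 counts and on 9, 13 and 3 counts. miR-126a is known from endothelium and lies within the gene Egfl7 (chromosome 2, 26591357 to 26591429, plus strand, GRCm38.p6). miR-126a-3p was at 396, 551 and 557 CPM in the MNP libraries and 19063, 20274 and 17149 CPM in the MWK libraries, again without overlap.

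The MNP mean was 1.67% of the MWK mean for miR-9-5p, 0.977% for miR-200c-3p, 1.09% for miR-429-3p, 2.35% for miR-200a-5p, 2.66% for miR-126a-3p and 2.78% for miR-126a-5p. These miRNAs were picked for a profile near that of miR-9-5p, so nothing is read from the closeness of the percentages.

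Seeds, in capitals, are shown to compare miR-9-5p with these miRNAs, of which RefSeq gave 4 of 5.
miR-200c-3p: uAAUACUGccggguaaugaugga
miR-429-3p: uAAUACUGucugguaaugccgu
miR-200a-5p: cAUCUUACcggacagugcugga
miR-126a-3p: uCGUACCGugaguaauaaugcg
miR-200c-3p and miR-429-3p share a seed, and none of the 4 has that of miR-9-5p.

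No strand tested of other miRNAs known from neural tissue was called lower in MNP, where miR-9-5p was low. Of a list of 13 names, 8 had counts, as 11 strands, of which 5 were higher in MNP and 0 lower by edgeR's test, with a median log2 fold change of 1.09. Among all 525 miRNAs 19.4% were called higher and 17.1% lower. Groups did not overlap for 6 of the 11, with MNP above, as for 23.4% of all 525. One of these, miR-212-3p, passed the filter on low counts through MNP alone. miR-124, miR-137, miR-153, miR-219b and miR-219c were not analysed here. Summed, the 11 strands were at 2018, 2102 and 2533 CPM in the MNP libraries and 1813, 1684 and 1897 CPM in the MWK libraries, less than miR-9-5p alone in every MWK library.

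The strands that were higher came from miR-132 and miR-212, known for their induction by neuronal activity, and from miR-383 and miR-219a. miR-132-5p was at 108, 118 and 155 CPM in MNP1, MNP2 and MNP6 and 30.1, 47.2 and 26.3 CPM in MWK1, MWK2 and MWK6 (log2 fold change 1.87, standard error 0.31, edgeR adjusted p = 0.000345). miR-212-5p was at 246, 316 and 536 CPM in the MNP libraries and 162, 91.3 and 132 CPM in the MWK libraries (log2 fold change 1.50, standard error 0.31, edgeR adjusted p = 0.00208). Both lay higher in each MNP library than in any MWK library, opposite to miR-9-5p. miR-132 and miR-212 lie on the plus strand of chromosome 11 (75173682 to 75173747 and 75173388 to 75173478, mm10) in an intron of one noncoding transcript, so their strands are not independent. miR-383-5p was at 93.5, 58.8 and 57.8 CPM in the MNP libraries and 18.0, 12.6 and 14.6 CPM in the MWK libraries (log2 fold change 2.19, standard error 0.37, edgeR adjusted p = 0.000437). miR-219a-1-3p was at 108, 93.6 and 131 CPM in the MNP libraries and 30.1, 37.8 and 46.8 CPM in the MWK libraries (log2 fold change 1.53, standard error 0.29, edgeR adjusted p = 0.000983). Neither overlapped between the groups. miR-132-3p was called (log2 fold change 1.09, standard error 0.34, edgeR adjusted p = 0.0217) but not without MNP2, MNP6, MWK2 or MWK6, with adjusted p from 0.00513 to 0.117 over the fits without one library, nor by DESeq2 (adjusted p = 0.0564).

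The strands not past the threshold included the most abundant of the list, miR-128-3p, known from neurons. It was at 1354, 1374 and 1503 CPM in the MNP libraries and 1449, 1436 and 1587 CPM in the MWK libraries, and the groups overlapped. Its log2 fold change was -0.08 (edgeR adjusted p = 0.763), or 0.13 under library totals in place of TMM, a scaling that moved the median of all miRNAs by 0.20, so the sign follows the scaling. miR-212-3p had 3, 5 and 4 counts in MNP and 0, 1 and 1 in MWK (edgeR adjusted p = 0.105). miR-129-5p, miR-138-5p, miR-219a-5p and miR-488-3p had at most 12 counts in any library, overlapped between the groups and had edgeR adjusted p of 0.256, 0.993, 0.868 and 0.98. None of the neural strands was thus called lower in MNP. miR-129-5p leaned lower (log2 fold change -0.98), with 4, 7 and 1 counts in MNP and 4, 6 and 9 in MWK. miR-212-3p, miR-219a-5p and miR-488-3p had at most 4 counts in any MWK library. These are too few to show a fall as large as that of miR-9-5p.

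Among 3 strands of neuroendocrine miRNAs, 1 was higher and 1 lower, beside 19.4% higher and 17.1% lower of all 525, which is no result about the list. miR-7a-5p, the most abundant, was not past the threshold (edgeR adjusted p = 0.264). miR-375-3p, known from pancreatic islets, was at 7.38, 6.53 and 13.1 CPM in the MNP libraries and 132, 104 and 164 CPM in the MWK libraries (log2 fold change -3.86, standard error 0.37, edgeR adjusted p = 3.23e-06), and so moved in the direction of miR-9-5p, whereas miR-7b-5p, with 18, 29 and 9 counts in MNP and 1, 2 and 2 in MWK, was higher (log2 fold change 3.05, edgeR adjusted p = 0.000868) but passed the filter through MNP alone. Their sum was 1964, 1882 and 1873 CPM in the MNP libraries and 2074, 2314 and 2683 CPM in the MWK libraries.

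All endothelial and most epithelial marker strands were lower in MNP, as was miR-9-5p. Of 4 endothelial strands 4 were lower and 0 higher, where 17.1% of all 525 miRNAs were lower and 19.4% higher, with a median log2 fold change of -4.94. The 4 strands come from 2 miRNAs, miR-126a and miR-139. Strands of one hairpin, counted separately here and in other lists, are not independent. Their sum was 450.5, 634 and 617 CPM in MNP1, MNP2 and MNP6 and 20548, 21791 and 18496 CPM in MWK1, MWK2 and MWK6, mostly miR-126a-3p. None was at 0 in all 3 MNP libraries, but miR-139-3p had 0, 2 and 0 counts there and passed the filter through MWK alone. Relative to the MWK mean their sum was 2.22%, 3.13% and 3.04% in the MNP libraries, next to 1.47%, 2.05% and 1.51% for miR-9-5p. The sum follows miR-126a-3p, while miR-139-5p, at 35.4 CPM in MNP and 358 CPM in MWK on average, kept 9.89%. The part of endothelial cells in the fall of miR-9-5p was not tested.

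Of 12 epithelial strands 11 were lower and 0 higher, beside 17.1% lower and 19.4% higher of all 525. The 12 strands come from 10 miRNAs and are not all independent, since miR-200a and miR-429 lie within one noncoding transcript. The median log2 fold change was -5.98, or -4.56 with miR-141-3p and miR-200b-5p, which had 0 counts in every MNP library, set to the bound that 3 counts per library give. Of the strands called lower, these and miR-200c-3p and miR-205-5p, the latter with 1, 3 and 2 counts in MNP, passed the filter through MWK alone. The sum was 7833, 7549 and 4692 CPM in MNP1, MNP2 and MNP6 and 32850.3, 35910.0 and 33739 CPM in MWK1, MWK2 and MWK6. The most abundant strand in MWK, miR-200a-3p, was at 101, 174 and 39.4 CPM in the MNP libraries and 12861, 13373 and 11094 CPM in the MWK libraries. Unlike miR-9-5p, the summed list kept 19.6% of its MWK level, since miR-183-5p at 4111 ± 1032 CPM and miR-182-5p at 2130.0 ± 528 CPM made up most of it in MNP. miR-183-5p was not past the threshold (edgeR adjusted p = 0.0945, 0.0122 without MNP1), and miR-182-5p was (0.0128), though not without MWK2 or MWK6 (up to 0.0701). The part of epithelial cells in the fall of miR-9-5p was not tested.

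Lists of red cell precursors, tubule and smooth muscle were lower in part, where 17.1% of all 525 miRNAs were lower and 19.4% higher. Of 7 erythroid strands 5 were lower and 0 higher, with sums of 549, 405 and 271 CPM in the MNP libraries and 1858, 1851 and 953 CPM in the MWK libraries, led in MWK by miR-451a and in MNP by the equal miR-486a-5p and miR-486b-5p. The strands of miR-486a and miR-486b have equal counts in every library, and with these taken once 4 of 5 strands were lower and the sum was at 22.7% of its MWK level, against 26.3%. Of 5 tubule strands 2 were lower and 0 higher, with sums of 1009, 1024 and 1293 CPM and 3133, 3161 and 2329 CPM, led by miR-192-5p except in MNP6, where miR-204-5p was higher. Of 4 smooth muscle strands 2 were lower and 0 higher, with sums of 21794, 28633 and 26080.5 CPM and 61191, 72018 and 57876 CPM, led by miR-143-3p. No strand of these lists was at 0 in all 3 MNP libraries, but miR-486a-3p and miR-486b-3p had 4, 1 and 0 counts each. Their part in the fall of miR-9-5p was not tested.

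The remaining lists had no strand called lower, and with all libraries their counts of strands called higher stand beside 19.4% higher and 17.1% lower of all 525. Of 6 stromal strands 1 was higher, miR-199b-5p, and 0 lower, with sums of 22210.3, 29558 and 33426 CPM in the MNP libraries and 21886, 23601 and 22345 CPM in the MWK libraries. miR-199a-3p, the most abundant in MWK and equal in counts to miR-199b-3p, was not past the threshold (edgeR adjusted p = 0.312, 0.0477 under library totals). Without MNP1, 4 of the 6 were called higher, beside 20.6% of all miRNAs, and under library totals 3, beside 23.0%, so the stromal count rests on MNP1 and on the scaling. Both of these counts include the equal miR-199a-3p and miR-199b-3p, the same measurement under both names. With these taken once, in the fit of all libraries with TMM, 1 of 5 was higher and the sum was at 129% of its MWK level, against 126%. Of 6 leukocyte strands 1 was higher, miR-223-5p, and 0 lower, with sums of 150.2, 159 and 84.1 CPM and 111, 116 and 73.1 CPM. Without MNP6, 2 of the 6 were called higher, beside 15.2% of all miRNAs. miR-223-5p had 4, 8 and 7 counts in MNP and 0 in every MWK library, and so passed the filter through MNP alone. miR-142a-3p, the highest of that list in MNP1 and MNP2, was not past the threshold (edgeR adjusted p = 0.257, 0.0134 without MNP6). Of 4 striated muscle strands 1 was higher, miR-206-3p, and 0 lower, with sums of 327, 459.5 and 142 CPM and 75.2, 139 and 61.4 CPM. miR-206-3p had 76, 129 and 25 counts in MNP and 0, 5 and 1 in MWK, and so also passed the filter through MNP alone.

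MNP thus held 1.67% of the MWK level of miR-9-5p, 2.80% of the endothelial sum, 19.6% of the epithelial, 26.3% of the erythroid, 38.6% of the tubule and 40.0% of the smooth muscle sum. The neuroendocrine sum was at 80.9%, the neural at 123%, the stromal at 126%, the leukocyte at 131% and the striated muscle sum at 338%. In MWK, miR-126a-3p, picked above for its likeness to miR-9-5p, made up 92.9% of the endothelial sum and miR-128-3p 82.9% of the neural sum. In MNP, miR-183-5p and miR-182-5p made up most of the epithelial sum, while miR-200a-3p kept 0.843% of its MWK level. Nothing is thus read from the order of these percentages. Of the striated muscle sum, on average 310 CPM in MNP and 91.7 CPM in MWK, miR-206-3p gave 178 and 6.22 CPM. The other strands of that list overlapped between the groups, so its percentage rests mostly on miR-206-3p. Which cells of the whole kidney hold miR-9 was not measured.

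**Figure D2:**
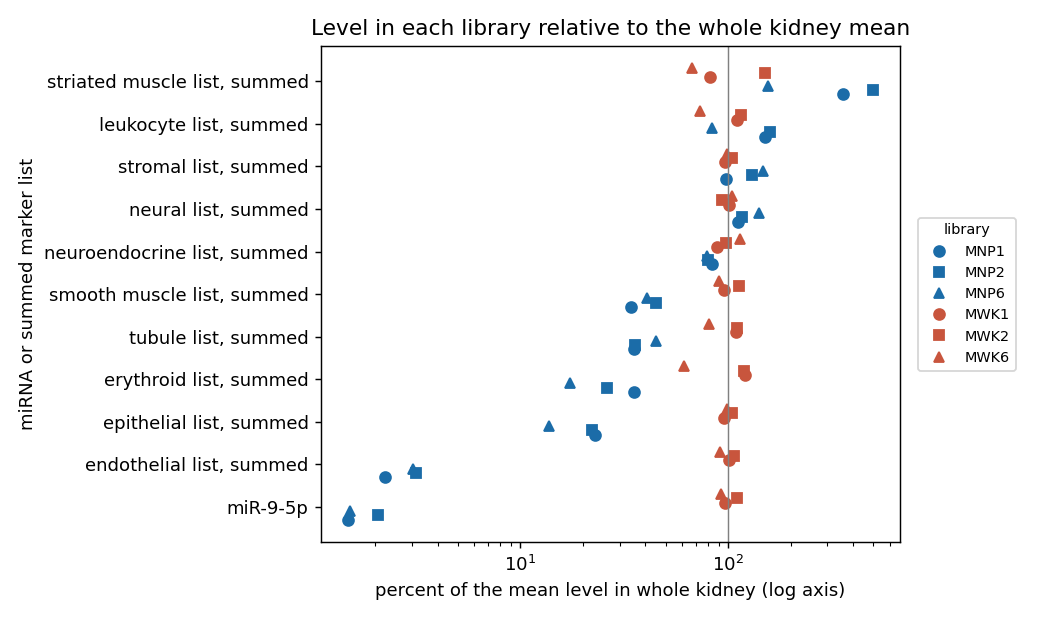
Level in each library as a percentage of the mean of the 3 MWK libraries, on a log axis, for miR-9-5p and for the summed CPM of each marker list, with MNP in blue, MWK in red and a grey line at 100%. miR-9-5p lay at 1.47% to 2.05% in MNP, next to the endothelial list, mostly miR-126a-3p, at 2.22% to 3.13%. The neural list, mostly miR-128-3p, lay at 112% to 141%.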

How the data were processed

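Small RNA of 3 nephron progenitor and 3 whole kidney samples had been sequenced. The authors removed adapters (BBDuk), mapped reads with Bowtie2 2.2.3 to mm10 and quantified known miRNAs in miRDeep2. The deposited table gives estimated counts, not normalized, for each mature miRNA on each precursor. These expected counts were rounded (3 of 792 rows held fractions), although the design had assumed whole counts, and the highest count of each mature miRNA was kept per library, so that reads listed for several precursors of one mature name were used once. Reads listed under several mature names, such as miR-199a-3p and miR-199b-3p, stayed under each.

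The 525 miRNAs whose counts summed to more than 10 were scaled by TMM and tested with the quasi-likelihood functions of edgeR 4.0.16 in R 4.3.3, with Benjamini-Hochberg adjustment. Standard errors were derived from the log2 fold change and the F statistic. Profiles of log2 CPM used a prior count of 2. The edgeR fit was also run on counts simulated with 4-fold changes, where it recovered 93% of them with 1.14% false calls. All simulated miRNAs and both groups had the same dispersion, unlike these libraries, so this does not measure false calls in these data. Alternatives were DESeq2 1.42.0, limma-voom (limma 3.58.1), other scalings, filters and handling of rows, removal of the 10 most abundant miRNAs, a replicate block and the removal of each library. For lists other than the neural and epithelial, the other tests and scalings, the removal of each library and the use of strands with equal counts once were added after seeing the data. Figures were drawn with matplotlib 3.10.9.

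Named miRNAs were both strands of miR-9, its neighbours in level, the 5 nearest patterns, all neural strands, the most abundant strand of every other list and up to 3 epithelial ones. Further strands of the lists were named after their values were seen. The members and lists were chosen with earlier results of these data known. Each replicate was pooled from 1 litter by the series' description (the groups may share litters, but a shared number is not stated to mean a shared litter), and chi-square per degree of freedom between libraries of one group ran from 2.90 to 55.0, above counting noise. Columns were grouped by their names.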

Additional observations from a re-analysis of the deposited data

How the results depend on the processing

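The log2 fold change of miR-9-5p lay from -6.05 to -5.80 with each library left out in turn. Under library totals in place of TMM it was -5.68, a scaling that moved the median of all miRNAs by 0.20, and relative to that median it was -5.87 under both. For miR-9-3p, with 1 count in nephron progenitors, the fitted value differed between settings. It was -4.37, and from -6.13 (without MNP6, which holds that count) to -3.84 with a library left out. It was -3.65 in limma-voom and -3.65 with the lowest count over precursors, an alternative chosen after seeing the data. In the 4 numbered libraries it was -6.11 with the replicate block and -6.07 without it, and miR-9-5p was -5.91 and -5.90. The differences between replicates 1 and 2 had a correlation of 0.039 between the groups, over 2 pairs, which does not show that the numbers pair the samples. miRNAs called numbered 192, from 145 to 210 with a library left out, and 202 with the block against 169 without it. Library totals gave 121 higher and 74 lower, against 102 and 90. Neural strands called were 5, from 4 to 5 with a library left out, and epithelial strands 11, from 10 to 12. Requiring more than 10 counts in every library left 260 miRNAs, 120 calls, 1 of 2 neural and 5 of 6 epithelial strands and no value for miR-9-3p. This filter also removes miRNAs that are low in only 1 group, such as miR-141-3p and miR-200b-5p, with 0 counts in every MNP library. In all settings run, neural calls were higher and epithelial calls lower in nephron progenitors. Depth limits what can be said of miR-9-3p.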
